A study of Mus musculus with 12 samples.

Results

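Transcripts of claudins and tight junction proteins were examined in the mouse gastric fundus, the acid-secreting part of the stomach, with and without the hormone gastrin. The genes were Cldn18, Cldn1, Cldn2, Cldn3, Cldn4, Cldn7, Cldn10, Ocln and Tjp1, and every probe set annotated to 1 of these 9 symbols was taken, 17 probe sets among 22626 tested and 9 genes among 12393. Each probe set combines short probes against a transcript, and its reading is a brightness without physical unit. There were 4 groups of 3 arrays. The first held gastrin knockout mice infused with gastrin for 1 week. The second held mice lacking both gastrin and cholecystokinin (gastrin-CCK double knockout), which were not described as infused. The third held gastrin knockout mice, males aged 2 months, infused with saline for 1 week. The fourth held wild-type mice, about 2 to 4 dissected, which were not described as infused either. Ages are given only for the saline-infused knockout. Total RNA came from scraped fundic mucosa in every group, and infusion is part of every comparison between an infused and an uninfused group. Nothing in the labels shows that replicates are different animals, so p-values reflect only how far these arrays scatter, and that scatter may be technical.

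Tight junctions seal the space between neighbouring epithelial cells. Claudins span the membrane and pair across the gap, where some close it and others form pores for ions or water. Occludin is a further membrane protein of the junction, and the scaffold protein ZO-1, made from Tjp1, ties both to the actin cytoskeleton. In the stomach this seal keeps acid in the lumen, and claudin-18 is the claudin best known there: mice without it leak acid into the mucosa and develop gastritis.

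The array medians lay between 403 and 421, and the log2 values of replicates had a Pearson r of 0.955 to 0.973 over all probe sets. The noise level of a group, set from the lowest percentile of its arrays, lay between 75.3 and 90.9. Gast, the gastrin gene, read no more than 37 on the 9 knockout arrays, against 318 to 823 on the wild-type arrays. The 99th percentile of intensity lay between 17247 and 18952 on the double-knockout arrays, below the other 9 arrays at 19778 to 23927, while the medians were alike. Summed squamous forestomach markers, 14 genes of the neighbouring stratified epithelium, ranged from 15007 to 44049 with gastrin infusion, 18017 to 77950 in the double knockout, 32672 to 99207 with saline infusion and 25420 to 47967 in wild type. RNA quality as read from the Gapdh control, its 3' signal over its 5' signal, was 1.17 to 1.21 with gastrin infusion, 1.29 to 1.32 in the double knockout, 1.01 to 1.18 with saline infusion and 0.983 to 2.00 in wild type.

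Cldn18 was the brightest member, and its leading probe set was higher in the saline-infused gastrin knockout than in wild type. On this probe set (1449428_at) Cldn18 read 18915, 18798 and 20062 with gastrin infusion, 21129, 21937 and 21422 in the double knockout, 30554, 27383 and 24963 in the saline-infused knockout, and 19497, 20231 and 14831 in wild type. The 3 saline-infused arrays stood above all 9 other arrays, and wild-type replicate 3 was the lowest of the 12. The saline-infused mean was 27633 ± 2804 and the wild-type mean 18186 ± 2929 (SD, n = 3 each), a log2 fold change of 0.61 ± 0.12 (standard error) with an adjusted p of 0.0406 in limma. This is a 1.53-fold higher level, and its 95% interval on the log2 scale ran between 0.34 and 0.88. In bulk mucosa a larger share of cells that carry a transcript cannot be told apart from more transcript per cell. Without the 2 saline-infused arrays of high forestomach signal, 1 saline-infused array remained, which stood 0.60 above wild type on the log2 scale. Leaving out any 1 of the 6 arrays compared kept it between 0.47 and 0.70 and ended the call each time, with adjusted p between 0.0578 and 0.119.

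Markers of other cell types differed between the same groups, and their part in the Cldn18 values was not tested. The summed signal of 11 parietal cell genes was 182009 to 189510 with gastrin infusion, 117943 to 129987 in the double knockout, 120639 to 145918 in the saline-infused knockout and 171365 to 204130 in wild type. Of these 11, 4 passed in the saline-infused knockout relative to wild type, all lower (median log2 difference -0.57), and with gastrin against saline infusion 6 passed, all higher (median 0.61). In the double knockout 2 of 11 were called lower than in wild type (median -0.37), but 0 with quantile normalization (median -0.18). Relative to the saline-infused knockout 1 of 11 was called higher in the double knockout (median 0.16). With quantile normalization 3 were called higher there (median 0.29). Atp4a, the catalytic subunit of the acid pump, averaged 38737 ± 5321 in the saline-infused knockout and 60910 ± 6209 in wild type (log2 difference -0.66, adjusted p = 0.0256). The 11 smooth muscle and stroma genes summed to 19966 to 40596 with gastrin infusion, 12537 to 16193 in the double knockout, 10810 to 20543 in the saline-infused knockout and 18889 to 22204 in wild type. None of the 11 passed in the saline-infused knockout relative to wild type, where all were on the lower side (median -0.61), or with gastrin against saline infusion, where all were on the higher side (median 0.78). The 2 measured mucous neck cell genes summed to 55912 to 57649 with gastrin infusion and 46783 to 52274 in the double knockout. They summed to 65443 to 73492 in the saline-infused knockout and 57473 to 66750 in wild type. Both were on the higher side in the saline-infused knockout relative to wild type (median 0.27). With gastrin against saline infusion both were on the lower side (median -0.28), and neither passed in either comparison. The 6 surface mucous cell genes summed to 466318 to 512546 with gastrin infusion, 306386 to 336940 in the double knockout, 426881 to 516062 in the saline-infused knockout and 443145 to 517724 in wild type. None of the 6 passed between the saline-infused knockout and wild type. In the double knockout 5 of 6 were called lower than in wild type and 6 of 6 lower than in the saline-infused knockout (medians -0.52 and -0.58), but 0 in either with quantile normalization (medians 0.00028 and -0.0071).

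After gastrin infusion the leading Cldn18 probe set lay back near the wild-type values. Its mean was 19258 ± 698 with gastrin infusion and 27633 ± 2804 in the saline-infused knockout, and the groups did not overlap. The log2 difference of -0.52 ± 0.12 missed the threshold (adjusted p = 0.0750). It passed with quantile normalization (-0.45, adjusted p = 0.0471) and with the Gapdh ratio as a covariate (-0.58, adjusted p = 0.0254). Against wild type the gastrin-infused knockout differed by 0.10 ± 0.12 on the log2 scale (adjusted p = 0.816), with a 95% interval from -0.18 to 0.37.

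In the double knockout, which also lacks gastrin, Cldn18 averaged 21496 ± 409 and lay between the saline-infused knockout and wild type. The double knockout differed from the saline-infused knockout by -0.36 ± 0.12 on the log2 scale (adjusted p = 0.119) and from wild type by 0.25 ± 0.12 (adjusted p = 0.285), and it overlapped with neither. These 2 estimates depended on the scale of the arrays. With quantile normalization, which gives every array the same distribution, Cldn18 in the double knockout differed from the saline-infused knockout by -0.01 and from wild type by 0.54 (adjusted p = 0.0180). The gastrin-infused knockout differed from the double knockout by -0.16 ± 0.12 on the log2 scale (adjusted p = 0.499), and by -0.44 with quantile normalization (adjusted p = 0.0296).

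The other Cldn18 probe set gave a less even picture. On 1425445_a_at Cldn18 read 11760, 10152 and 11418 with gastrin infusion, 11768, 17090 and 12892 in the double knockout, 14748, 15867 and 13243 in the saline-infused knockout, and 8639, 7663 and 15039 in wild type. Wild-type replicate 3, lowest on the leading probe set, was the highest wild-type array here. The saline-infused knockout stood 0.55 ± 0.24 above wild type on the log2 scale (adjusted p = 0.276), with 0.84 (adjusted p = 0.0617) when wild-type replicate 3 was left out. Wild-type replicates 1 and 2 also had the highest Gapdh ratios, 1.51 and 2.00, against 0.983 for replicate 3. Without those 2 arrays wild type is replicate 3 alone, and the difference was -0.045 on this probe set and 0.89 on the leading one, 1 array against 3 with its spread taken from the other groups. Across the 12 arrays the 2 Cldn18 probe sets correlated at r of 0.33, a description over arrays that share groups and scale. The plot of Cldn18, Ocln and Tjp1 by array shows both probe sets side by side.

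**Figure D1:**
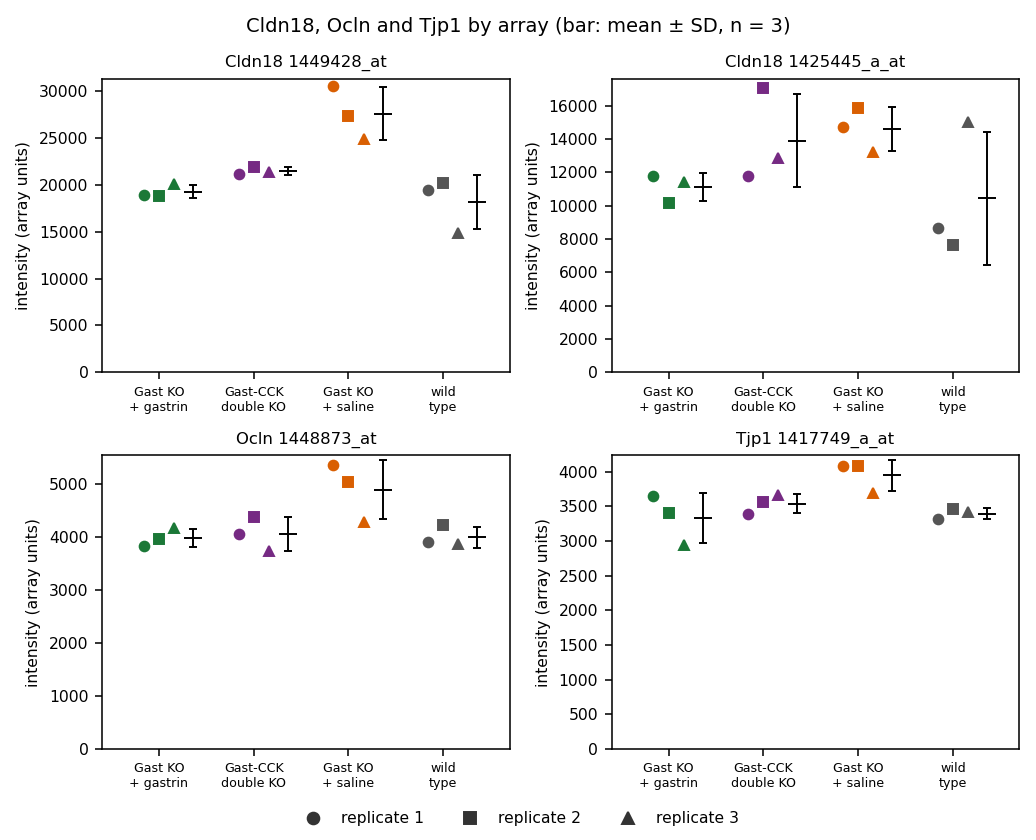
Intensity in array units of 4 probe sets, with the 4 groups along the x axis, 1 symbol per array and the mean ± SD of 3 arrays beside them. The saline-infused knockout stands highest for the leading Cldn18 probe set (24963 to 30554), while 1425445_a_at has a wild-type array, replicate 3, at 15039.

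RefSeq annotates 2 starts for Cldn18 in assembly GRCm38.p6, each with its own first exon; in mouse one serves the lung form and the other the stomach form of the protein. Their promoter windows, most of each upstream of the start, are shown with those of Cldn1, whose dim probe set was the other one to pass a test, and Cldn4, which had the largest difference among the genes' leading probe sets in the saline-infused knockout. Letters are 5′ to 3′ on the gene's strand, and capitals mark a TATA box (TATAAA), a GC box (GGGCGG), an E-box that repressors of the Snail family can bind (CAGGTG) or an AP-1 type site (TGANTCA), each searched on both strands.
Cldn18 first start, chr9:99717218-99717517, minus strand: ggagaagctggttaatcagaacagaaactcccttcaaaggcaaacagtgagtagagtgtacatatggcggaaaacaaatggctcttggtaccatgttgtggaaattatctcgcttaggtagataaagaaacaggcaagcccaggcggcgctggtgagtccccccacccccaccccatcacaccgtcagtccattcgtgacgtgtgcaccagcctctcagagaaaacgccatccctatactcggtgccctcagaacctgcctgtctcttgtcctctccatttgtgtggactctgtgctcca
Cldn18 second start, chr9:99710014-99710313, minus strand: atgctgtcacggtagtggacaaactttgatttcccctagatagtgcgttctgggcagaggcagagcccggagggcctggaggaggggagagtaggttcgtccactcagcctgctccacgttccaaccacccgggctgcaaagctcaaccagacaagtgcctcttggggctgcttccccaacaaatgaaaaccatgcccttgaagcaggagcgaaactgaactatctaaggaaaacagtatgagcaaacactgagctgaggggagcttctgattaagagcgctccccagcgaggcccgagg
Cldn4, chr5:134946885-134947184, minus strand: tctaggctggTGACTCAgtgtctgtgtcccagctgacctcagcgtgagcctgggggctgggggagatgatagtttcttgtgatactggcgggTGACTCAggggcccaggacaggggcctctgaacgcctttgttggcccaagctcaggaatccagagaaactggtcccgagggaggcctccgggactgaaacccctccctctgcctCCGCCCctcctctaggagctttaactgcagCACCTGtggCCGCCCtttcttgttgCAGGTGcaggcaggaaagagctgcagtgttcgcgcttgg
Cldn1, chr16:26371790-26372089, minus strand: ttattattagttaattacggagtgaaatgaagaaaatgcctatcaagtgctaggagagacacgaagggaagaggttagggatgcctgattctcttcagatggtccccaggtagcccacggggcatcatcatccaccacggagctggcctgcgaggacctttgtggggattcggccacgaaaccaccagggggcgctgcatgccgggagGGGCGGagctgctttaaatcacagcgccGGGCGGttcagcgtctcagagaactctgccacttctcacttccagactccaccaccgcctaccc
Neither Cldn18 window held any of the 4 motifs. The Cldn4 window held 2 GC boxes, 2 copies of CAGGTG and 2 AP-1 type sites, and the Cldn1 window 2 GC boxes. Among 32851 windows of this length in the table, 13.6% held TATAAA, 35.7% held GGGCGG, 20.2% held CAGGTG and 7.81% held TGANTCA, so single matches are common. Among the 13 starts of the 9 genes, 1, 8, 5 and 1 held these motifs in the same order. No 2 motifs in these windows overlapped. A match is a string of letters and does not show that a factor binds there.

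Ocln and Tjp1, for occludin and ZO-1, were well above noise on all 12 arrays and differed by small amounts. Ocln (1448873_at) read 3821, 3954 and 4170 with gastrin infusion, 4051, 4373 and 3726 in the double knockout, 5365, 5039 and 4276 in the saline-infused knockout, and 3897, 4225 and 3863 in wild type. All 3 saline-infused values lay above all wild-type and gastrin-infused values, the lowest of them narrowly so. The saline-infused knockout stood 0.29 ± 0.10 above wild type on the log2 scale, which did not pass (adjusted p = 0.170). The gastrin-infused knockout differed from the saline-infused knockout by -0.29 ± 0.10 (adjusted p = 0.184), and the double knockout by -0.27 ± 0.10 with an overlap (adjusted p = 0.145). The other 3 comparisons of Ocln gave log2 differences of -0.02 to 0.02.

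Tjp1 (1417749_a_at) also averaged most in the saline-infused knockout, by smaller differences than Ocln. It read 3650, 3410 and 2941 with gastrin infusion, 3395, 3559 and 3664 in the double knockout, 4078, 4080 and 3689 in the saline-infused knockout, and 3313, 3464 and 3416 in wild type. The saline-infused arrays were the 3 highest of the 12, the lowest of them (3689) only narrowly above 3664 in the double knockout. The log2 difference was 0.22 ± 0.09 for the saline-infused knockout relative to wild type (adjusted p = 0.232), -0.25 ± 0.09 for gastrin against saline infusion (adjusted p = 0.198) and -0.16 ± 0.09 for the double knockout against the saline-infused knockout (adjusted p = 0.338). For Ocln and Tjp1 the 95% intervals of the saline-infused knockout relative to wild type, 0.07 to 0.51 and 0.02 to 0.41 on the log2 scale, bound the size of any difference.

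Cldn4 and Cldn3 are neighbouring genes on chromosome 5 in GRCm38.p6, and both encode claudins usually classed as sealing. Cldn4 (1418283_at) read 159, 461 and 256 with gastrin infusion, 344, 201 and 290 in the double knockout, 376, 370 and 526 in the saline-infused knockout, and 221, 148 and 138 in wild type. Every array was above noise, and the saline-infused and wild-type arrays did not overlap, while the gastrin-infused values spread over almost the whole range. The mean was 424 ± 88.4 in the saline-infused knockout and 169 ± 45.3 in wild type, a log2 difference of 1.34 ± 0.38 that did not pass (adjusted p = 0.113). The gastrin-infused knockout differed from the saline-infused knockout by -0.65 ± 0.38 (adjusted p = 0.451) and the double knockout by -0.62 ± 0.38 (adjusted p = 0.398). The intervals of these 2 differences, from -1.51 to 0.20 and from -1.48 to 0.23, take in both no change and a large fall.

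Forestomach signal was set beside Cldn4 array by array, and whether it is a cause of the Cldn4 values was not tested. Saline-infused replicates 1 and 2 read 376 and 370 for Cldn4 at forestomach signals of 84622 and 32672. The array with the most forestomach signal was also the one with the most Cldn4 among the gastrin-infused arrays (replicate 2), the saline-infused arrays (replicate 3) and the wild-type arrays (replicate 1), though not among the double-knockout arrays. All 14 measured forestomach markers were on the higher side in the saline-infused knockout relative to wild type, with a median log2 difference of 1.05 and 1 of 14 past the test, and all 14 were on the lower side with gastrin against saline infusion, with a median of -1.25 and 2 of 14 past it. With the summed markers as a covariate the Cldn4 difference of the saline-infused knockout from wild type was 0.89 (adjusted p = 0.158), and that of gastrin from saline infusion 0.03. Saline-infused replicate 2 had forestomach signal of 32672, within the wild-type range, and read 370 for Cldn4 and 27383 for the leading Cldn18 probe set, above every wild-type array in both. The keratin gene Krt13 of squamous epithelium read 1171 on that array and 4370 to 5391 on the other saline-infused arrays, against 462 to 1453 in wild type.

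**Figure D2:**
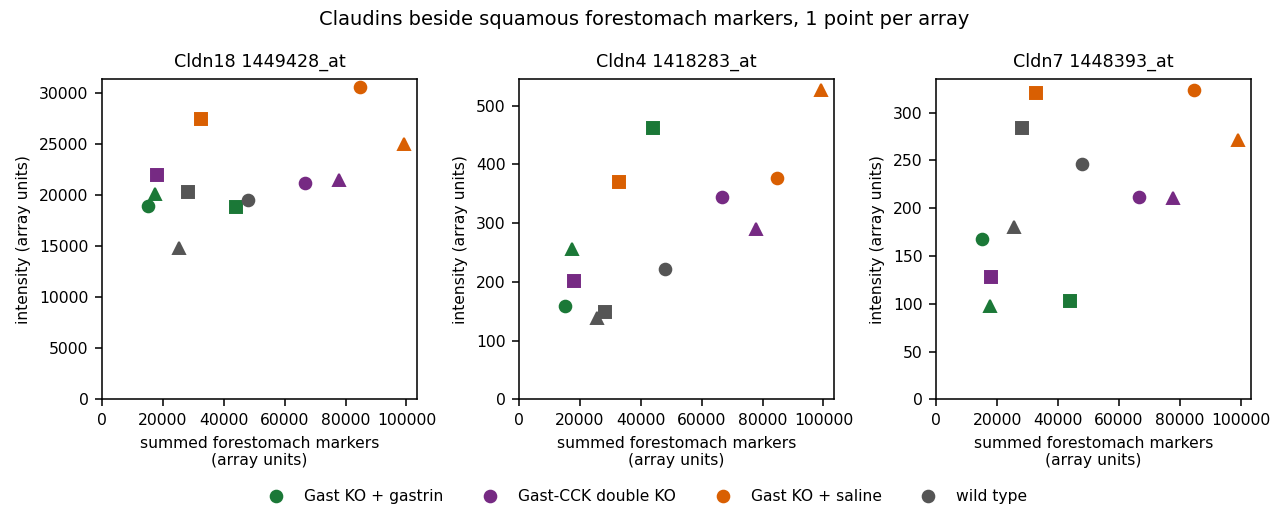
Intensity of Cldn18, Cldn4 and Cldn7 (y axis, array units) against the summed intensity of 14 forestomach markers (x axis, array units), 1 point per array, coloured by group, with circles, squares and triangles for replicates 1, 2 and 3. The saline-infused array at 32672 (square) carries Cldn18 of 27383 and Cldn4 of 370, and the gastrin-infused array with the most markers (44049) carries the highest Cldn4 of its group, 461.

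Cldn3 was the brightest of the remaining claudins on probe set 1434651_a_at. It read 1639, 1229 and 1108 with gastrin infusion, 976, 748 and 1131 in the double knockout, 1021, 1677 and 1274 in the saline-infused knockout, and 1031, 890 and 898 in wild type. Both infused groups averaged more (1325 ± 278 with gastrin, 1324 ± 331 with saline) than the uninfused groups (952 ± 193 in the double knockout, 940 ± 79.2 in wild type). The infused groups are also the only ones of the gastrin knockout genotype, so infusion and genotype cannot be told apart here. The gastrin-infused knockout stood 0.48 ± 0.22 above wild type with no overlap (adjusted p = 0.451). It stood 0.48 ± 0.22 above the double knockout with an overlap (adjusted p = 0.251). The saline-infused knockout stood 0.47 ± 0.22 above wild type with an overlap (adjusted p = 0.308). The double knockout differed from the saline-infused knockout by -0.47 ± 0.22, also with an overlap (adjusted p = 0.264). None of these differences passed. The other 3 Cldn3 probe sets averaged 96.3, 124 and 136 over all arrays, close to the noise, and none passed a test.

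Cldn7, which many epithelia also carry on their lateral membranes, was dim and lowest after gastrin infusion. On 1448393_at it read 168, 103 and 98 with gastrin infusion, 212, 128 and 211 in the double knockout, 324, 320 and 271 in the saline-infused knockout, and 246, 284 and 180 in wild type. The gastrin-infused values lay below all saline-infused and all wild-type values, with 2 of the 3 near the noise level of 89. The mean was 123 ± 39 with gastrin infusion and 305 ± 29.5 in the saline-infused knockout, a log2 difference of -1.35 ± 0.27 just beyond the threshold (adjusted p = 0.0525). With quantile normalization it passed (-1.37, adjusted p = 0.0396), and under no other alternative tried. The gastrin-infused knockout differed from wild type by -0.96 ± 0.27 (adjusted p = 0.256) and from the double knockout by -0.59 ± 0.27 (adjusted p = 0.254). In the saline-infused knockout Cldn7 was 0.39 ± 0.27 above wild type (adjusted p = 0.504). The gastrin-infused knockout and wild type differ in both genotype and infusion, so the low values cannot be assigned to either. The double knockout lay -0.76 ± 0.27 from the saline-infused knockout without overlap (adjusted p = 0.140).

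Cldn1, a sealing claudin of skin and other squamous epithelia, had 4 probe sets with unlike patterns. On the brightest (1450014_at) it read 217, 309 and 188 with gastrin infusion, 186, 144 and 176 in the double knockout, 313, 186 and 409 in the saline-infused knockout, and 256, 297 and 304 in wild type. Here the double knockout was low, below all wild-type arrays, with log2 differences of -0.76 ± 0.28 from wild type (adjusted p = 0.176) and -0.78 ± 0.28 from the saline-infused knockout (adjusted p = 0.145). The double knockout overlapped with the saline-infused knockout. That difference passed under only 1 alternative, without saline-infused replicate 2, the lowest array of its group (-1.09, adjusted p = 0.0468). The saline-infused knockout differed from wild type by 0.01 ± 0.28 (adjusted p of 1.00).

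Probe set 1438850_at of Cldn1 was the only other member probe set to pass in a comparison. It read 77, 54 and 36 with gastrin infusion, 63, 65 and 109 in the double knockout, 132, 106 and 102 in the saline-infused knockout, and 33, 49 and 27 in wild type. It was above noise on all 3 saline-infused arrays, 1 double-knockout array and no gastrin-infused or wild-type array. The saline-infused mean was 113 ± 16.3 and the wild-type mean 36.3 ± 11.4, at least 1.41-fold higher given a wild-type noise level of 80.3 (fitted log2 difference 1.68 ± 0.33, adjusted p = 0.0406). That call was lost on leaving out any 1 of the 6 arrays (adjusted p 0.0641 to 0.121) and with a floor of 64 (0.81, adjusted p = 0.0705). Another Cldn1 probe set, 1438851_x_at, a type whose probes may also match other transcripts, read 129 to 173 with gastrin infusion, 99 to 167 in the double knockout, 179 to 306 with saline infusion and 110 to 179 in wild type. Its log2 difference of 0.63 ± 0.28 between the saline-infused knockout and wild type did not pass (adjusted p = 0.278). The dimmest, 1437932_a_at, lay within the noise in all 4 groups.

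Cldn2 and Cldn10 encode claudins that form ion pores, and neither passed in any comparison. On its brighter probe set (1417232_at) Cldn2 read 451, 452 and 513 with gastrin infusion, 502, 381 and 566 in the double knockout, 403, 491 and 567 in the saline-infused knockout, and 526, 359 and 361 in wild type. All 4 groups overlapped, and the saline-infused knockout differed from wild type by 0.24 ± 0.20 on the log2 scale (adjusted p = 0.576). On 1417231_at Cldn2 ranged from 193 to 248 with gastrin infusion, 118 to 431 in the double knockout, 229 to 505 with saline infusion and 177 to 291 in wild type, and the 2 Cldn2 probe sets correlated at r of 0.11 over the 12 arrays. Cldn10 (1426147_s_at) read 136, 247 and 257 with gastrin infusion, 189, 181 and 153 in the double knockout, 183, 200 and 272 in the saline-infused knockout, and 165, 133 and 191 in wild type. It too overlapped between the saline-infused knockout and wild type, with a log2 difference of 0.42 ± 0.26 (adjusted p = 0.449). The plot of the further claudins by array shows these dim probe sets against their noise.

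**Figure D3:**
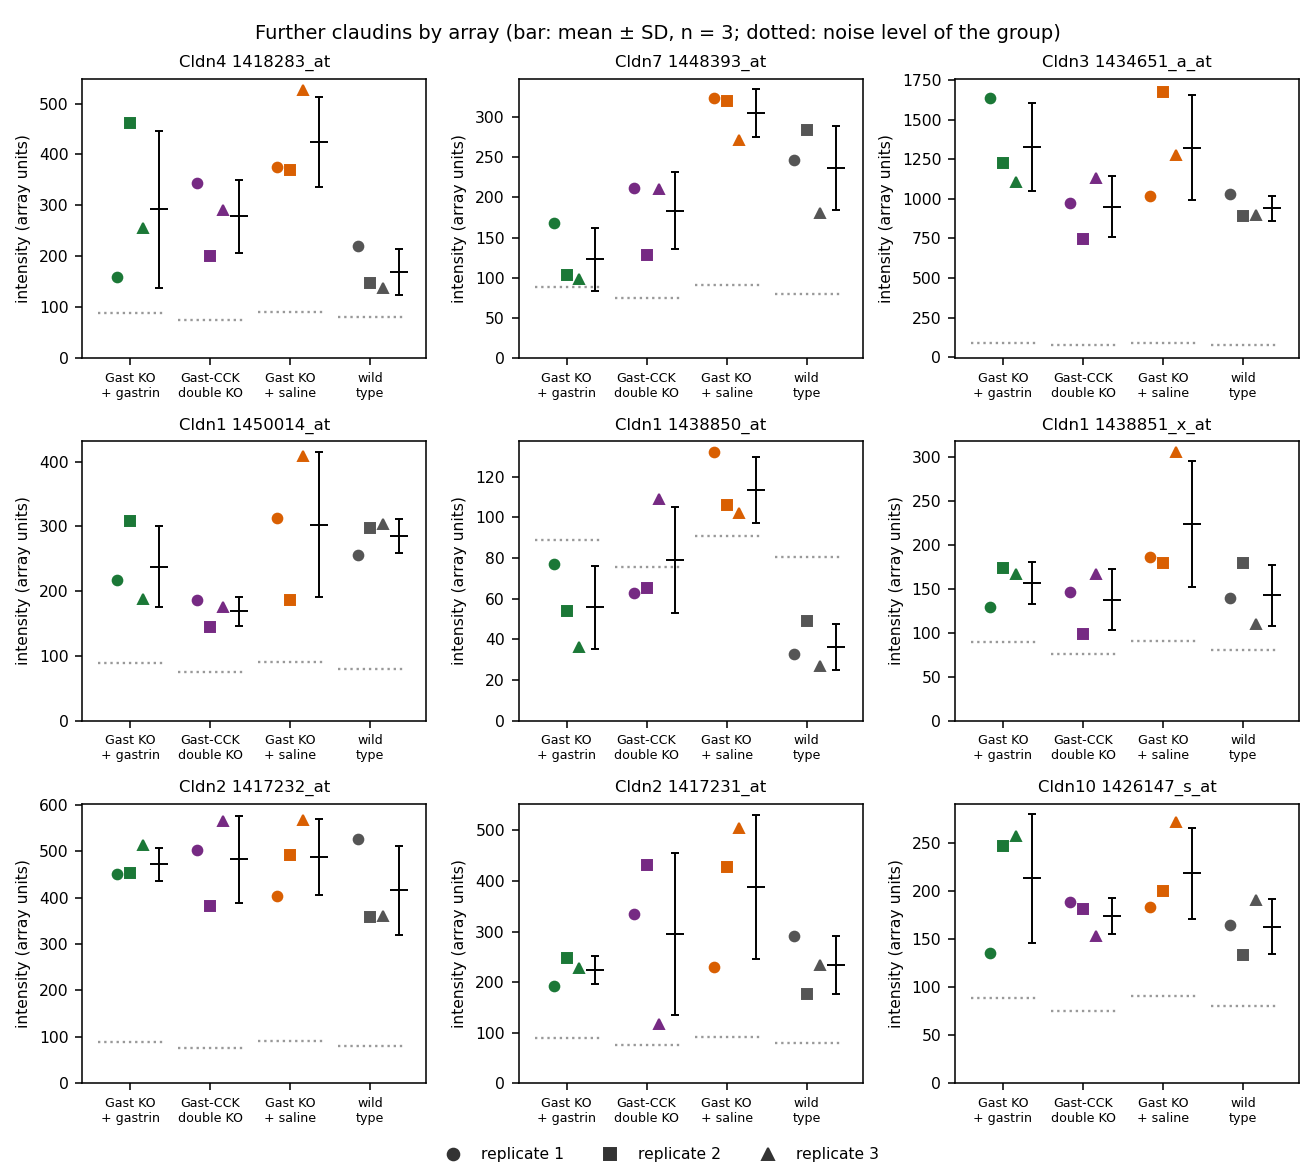
Intensity in array units of 9 probe sets of Cldn4, Cldn7, Cldn3, Cldn1, Cldn2 and Cldn10, with groups along the x axis, 1 symbol per array, the mean ± SD of 3 arrays beside them and the group's noise level dotted. Cldn7 stands lowest in the gastrin-infused knockout (98 to 168), and Cldn1 on 1438850_at stands above its noise level on all 3 arrays in the saline-infused knockout alone (102 to 132).

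Counted over the 17 probe sets, 2 rose in the saline-infused knockout relative to wild type and none fell. They were the leading probe set of Cldn18 and a dim one of Cldn1, with a wild-type mean within the noise. The leading Cldn1 probe set differed by 0.01 between these groups. Of all probe sets in that comparison 0.707% were called higher and 1.37% lower. The 2 groups did not overlap for 5 of the 17 (29.4%), all higher in the saline-infused knockout, against 22.6% of all probe sets, a share near the background. Among the leading probe sets all 9 genes were on the higher side, with a median log2 difference of 0.39, where 51.1% of all probe sets were above 0 and their median was 0. Of these 9 values only that of Cldn1, the smallest, changed sign under any alternative tried.

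With gastrin against saline infusion none of the 17 passed in limma, and 5 had an unadjusted p under 0.05. Of all probe sets 0.773% were called higher and 0.473% lower. The groups did not overlap for 7 of the 17 (41.2%), all lower with gastrin, against 20.2% of all probe sets: both probe sets of Cldn18, 2 of Cldn1, and those of Cldn7, Ocln and Tjp1. Among the leading probe sets 8 of 9 genes were on the lower side, with a median log2 difference of -0.29, where 48.4% of all probe sets were above 0. This comparison and the preceding one share the saline-infused arrays, so high values there enter both.

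Against wild type, the gastrin-infused knockout had 0 of the 17 called in limma and 1 with an unadjusted p under 0.05. Of all probe sets 0.0663% were called higher and 0.0442% lower, and 2 of the 17 (11.8%) did not overlap, Cldn3 higher and Cldn7 lower, against 16.2% of all. The median over the 9 leading probe sets was 0.10, with 5 above 0.

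The double knockout relative to wild type had 0 of the 17 called in limma and 2 with an unadjusted p under 0.05. Of all probe sets 2.02% were called higher and 2.12% lower. The groups did not overlap for 4 of the 17 (23.5%), against 23.7% of all, and the median over the leading probe sets was 0.06. Against the saline-infused knockout the double knockout had 0 called in limma and 5 with an unadjusted p under 0.05, where 3.22% of all probe sets were called higher and 2.76% lower. The groups did not overlap for 6 of the 17 (35.3%), all lower in the double knockout, against 25.2% of all. All 9 leading probe sets were on the lower side, with a median of -0.36, although the Cldn18 value moved to -0.01 with quantile normalization. The gastrin-infused knockout against the double knockout had 0 called in limma and 0 with an unadjusted p under 0.05, where 2.75% of all probe sets were called higher and 3.08% lower. The groups did not overlap for 3 of the 17 (17.6%), against 25.5% of all.

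**Figure D4:**
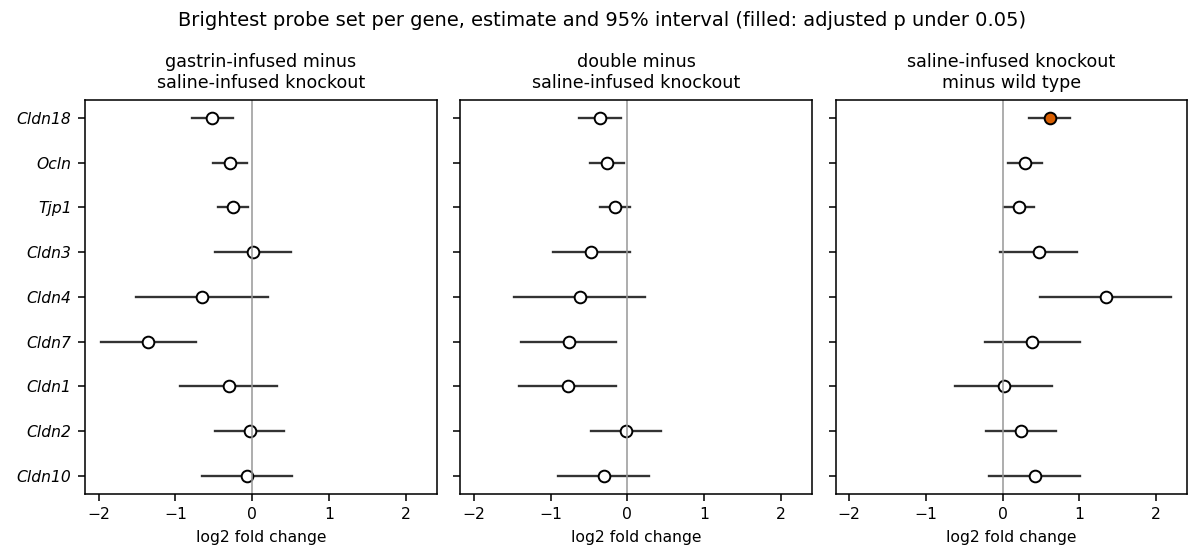
Log2 fold change (x axis) with its 95% interval for the brightest probe set of each of the 9 genes in 3 comparisons that share the saline-infused arrays; a filled point passed at adjusted p under 0.05. Cldn18 in the saline-infused knockout relative to wild type (0.61) is the filled point, and the points of that panel lie at or above 0.01.

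The wider junction genes showed few differences. Of 14 other claudins listed, 11 were measured and none passed in any of the 6 comparisons. Of 25 measured further tight junction genes, 1 fell in the saline-infused knockout relative to wild type: Amotl2, an angiomotin-family scaffold, averaged 835 ± 86.9 against 1341 ± 76.8 (log2 difference -0.69, adjusted p = 0.0489), a call lost on leaving out any 1 array. The same gene was higher in the double knockout, at 1252 ± 142, than in the saline-infused knockout (0.58, adjusted p = 0.0480). Marveld2, which encodes tricellulin of junctions where cells meet in threes and is the next protein-coding gene to Ocln on chromosome 13, averaged 521 ± 82.4 with gastrin infusion and 818 ± 50.3 in the double knockout (-0.66, adjusted p = 0.0333). None of the 25 passed in the other 3 comparisons.

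Neighbouring adhesion systems had like small numbers of calls. Against wild type, the saline-infused knockout had 7 of 10 adherens junction and 8 of 9 desmosome genes above 0 (medians 0.15 and 0.30). With gastrin against saline infusion 0 of 10 and 0 of 9 were above 0 (medians -0.28 and -0.46). These directions were thus not particular to the 9 member genes. The 11 other claudins and 25 further tight junction genes were more even. Of them 6 and 15 were above 0 in the first comparison, and 6 and 9 in the second. Of 10 adherens junction genes 1 passed, Ctnnd1 for p120 catenin, which averaged 1594 ± 294 with gastrin infusion and 2536 ± 243 in the double knockout (-0.68, adjusted p = 0.0400). Of 9 desmosome genes 1 passed in comparisons with the saline-infused knockout. Dsg2, a desmosomal cadherin, averaged 8011 ± 346 with gastrin infusion, 11032 ± 415 in the saline-infused knockout and 7269 ± 521 in wild type on its brightest probe set. It rose by 0.60 ± 0.09 on the log2 scale in the saline-infused knockout relative to wild type (adjusted p = 0.0174) and fell by 0.46 ± 0.09 with gastrin against saline infusion (adjusted p = 0.0495), the second of these lost on leaving out any 1 array. Its 6 probe sets did not all run the same way: on one of the dimmer ones it read 448 ± 109 in the saline-infused knockout and 589 ± 37.3 in wild type. Of 9 general epithelial genes 4 were lower in the double knockout than in the saline-infused knockout, the simple-epithelium keratins Krt8 (-0.58), Krt18 (-0.64) and Krt19 (-0.84) and the transcription factor gene Elf3 (-0.44), with adjusted p of 0.0349, 0.0136, 0.0121 and 0.0496. All 4 of these calls were lost with quantile normalization, as was that of Krt18 in the double knockout relative to wild type (-0.48, adjusted p = 0.0444). In the saline-infused knockout relative to wild type no general epithelial gene passed, and 8 of 9 were on the higher side with a median of 0.13. With gastrin against saline infusion 1 of the 9 was above 0, with a median of -0.20.

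The genes whose log2 values ran most like those of the leading Cldn18 probe set over the 12 arrays, among 7195 other genes, were Fam120a (Pearson r of 0.93), Mboat2 (0.91), Smim14 (0.91), Psapl1 (0.90) and Rps24 (0.90). For the brightest Cldn1 probe set, among 7196 genes, they were Cyp2j6 (0.85), Strn3 (0.83), Dhx8 (0.82), Col5a2 (0.82) and Slc40a1 (0.81). These arrays share groups, tissue make-up and scale, so the values describe likeness over these arrays only.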

How the data were processed

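The deposited values are linear array intensities, all whole, and 5.56% to 6.44% of them per array lie under 0. RNA was extracted with Trizol and RNeasy and about 1 µg converted to biotin-labelled target, per the labels. For probe-set summary, background treatment and scaling, the method is not given in the sources used here. After 64 controls were left out of 22690 probe sets, 20380 had 1 gene symbol, 691 several and 1555 none in the platform annotation; genes are named from the first kind. The analysis used log2 of each value with a floor of 16 and no further scaling. Group means were fitted in 1 linear model over all 12 arrays (limma 3.58.1, R 4.3.3, empirical Bayes, 8 residual degrees of freedom), with 6 contrasts; p-values were adjusted by Benjamini-Hochberg over 22626 probe sets and called under 0.05. The script was tested on simulated data. Noise was the lowest percentile (1) of an array with its sign turned; a group with its mean within it is given as a bound. The brightest probe set leads a gene. Named were all member probe sets, listed genes past the threshold, markers, and the 5 genes most like Cldn18 and Cldn1. The members and lists were chosen with earlier results of these data known. Promoter windows are RefSeq's, GRCm38.p6; all 9 genes matched by symbol. Figures used Python 3.11.15 and matplotlib 3.10.9. Alternatives were quantile normalization, a filter on dim probe sets, floors of 1 and 64, fits on the arrays of a single comparison, the replicate number as a block, the Gapdh ratio as a covariate and leaving out each array. Leaving out arrays of high Gapdh ratio (over 1.4) or of high forestomach signal, and forestomach signal as a covariate, were chosen after seeing the data. The number of arrays limits the precision.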

Additional observations from a re-analysis of the deposited data

How the results depend on the processing

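Of 918 alternative values for 59 reported differences, 758 kept direction and side of the threshold, 128 kept direction and lost the call, 8 gained one and 24 changed sign; the cause was not tested. Leaving out the arrays of high Gapdh ratio kept 1 wild-type array, and leaving out those of high forestomach signal kept 1 saline-infused and 1 double-knockout array; a lone array is then assumed to vary like the other groups, which cannot be checked. In the saline-infused knockout relative to wild type, 2 member probe sets were called. There was 1 with the filter on dim probe sets (Cldn1 was then not tested), a floor of 64, the Gapdh covariate or without the arrays of high Gapdh ratio. There were 0 in the fit on the compared arrays alone, with forestomach signal as a covariate, without the arrays of high forestomach signal, and without any 1 array. The Cldn18 call held with quantile normalization (adjusted p = 0.0228), the filter (0.0141), both floors and the Gapdh covariate (0.0177). Without the arrays of high Gapdh ratio, with wild type reduced to 1 array, the Cldn18 log2 difference was 0.89. The call was lost in the fit on the compared arrays alone (0.169) and with the forestomach covariate (0.0920). In both of these fits the Cldn18 log2 difference was 0.61. With gastrin against saline infusion 0 member probe sets were called, but 2 with quantile normalization (Cldn18 and Cldn7) and 1 each with the filter and the Gapdh covariate (Cldn18). Quantile normalization gave 1 call, Cldn18, in the double knockout relative to wild type and 1 in the gastrin-infused knockout against it. The Gapdh covariate gave 1 call, Cldn18, in the double knockout against the saline-infused knockout (-0.48, adjusted p = 0.0174), and leaving out 1 array gave 0 to 1.

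Same-numbered replicates did not deviate together over all probe sets (18 pairs, 1 with r over 0.1, median r of 0.008). The labels do not say what the numbers mean, and such correlations cannot exclude a small shared effect. With the replicate number as a block 0 member probe sets were called in the saline-infused knockout relative to wild type (Cldn18 adjusted p = 0.0619), and the calls over all probe sets were 239 there, against 470 without the block. They were 140 for gastrin against saline infusion and 8 for gastrin infusion against wild type.

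Over all probe sets the saline-infused knockout relative to wild type had 470 calls, with 746 under quantile normalization, 827 with the filter, 22 in the fit on the compared arrays alone, 47 with the Gapdh covariate, 77 and 89 without the arrays of high Gapdh ratio or forestomach signal, 216 with the forestomach covariate, and 94 to 285 without 1 array. Gastrin against saline infusion had 282, with 594, 705, 20, 152, 116, 79 and 162 in that order and 67 to 137 without 1 array. Gastrin infusion against wild type had 25, with 51, 74, 3, 12, 42, 3 and 66 in that order, 62 with a floor of 64, and 13 to 43 without 1 array. The double knockout relative to wild type had 936, with 43 in the fit on the compared arrays alone, 607 with the Gapdh covariate, 76 and 49 without the arrays of high Gapdh ratio or forestomach signal, and 323 to 613 without 1 array. The double knockout against the saline-infused knockout had 1352, with 208 in the fit on the compared arrays alone, 72 without high forestomach signal and 496 to 928 without 1 array. The gastrin-infused against the double knockout had 1319, with 295, 55 and 541 to 911 in the same order. Fewer arrays also leave less to estimate the spread.

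Among called probe sets the share that was higher changed with the setting, and the cause was not tested. With forestomach signal as a covariate the share was 50.9%, against 34.0% without, in the saline-infused knockout relative to wild type. It was 29.0% against 62.1% for gastrin against saline infusion and 36.4% against 60.0% for gastrin infusion against wild type. For the gastrin-infused against the double knockout it was 35.2% against 47.2%. Without the arrays of high forestomach signal the first 2 shares were 65.2% and 24.1%. The filter on dim probe sets gave 51.8% for gastrin against saline infusion. With the replicate number as a block the share was 32.2% in the saline-infused knockout relative to wild type. It was then 72.1% for gastrin against saline infusion and 37.5% of 8 calls for gastrin infusion against wild type. Without 1 array the share in the last of these comparisons was 44.4% to 62.8%.

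Sign changes were those of values that had not passed. Leaving out the arrays of high Gapdh ratio gave -0.045 for Cldn18 on 1425445_a_at in the saline-infused knockout and -0.13 in the double knockout, both against wild type. Leaving out wild-type replicate 3 gave -0.045 for the leading Cldn18 probe set in the gastrin-infused knockout relative to wild type. The brightest Cldn1 probe set in the saline-infused knockout relative to wild type was -0.054 with the Gapdh covariate, -0.080 without high Gapdh ratios, -0.61 without high forestomach signal, -0.29 with the forestomach covariate, and -0.24 to 0.33 without 1 array. With gastrin against saline infusion the forestomach covariate gave 0.20 for Cldn2, 0.031 for Cldn4, 0.068 for Cldn10 and 0.16 for Cldn1, and leaving out high forestomach signal gave 0.037 for Cldn10, -0.36 for Cldn3 and 0.32 for Cldn1. The Gapdh covariate gave 0.0067 for Cldn10. Without 1 array, Cldn2 ranged from -0.16 to 0.083, Cldn10 from -0.23 to 0.23 and Cldn3 from -0.16 to 0.20, and the leading Cldn18 probe set in the gastrin-infused knockout differed from wild type by -0.045 to 0.18. Probe sets near the noise, such as those of Cldn1 at 1438850_at, have values that the floor and noise level partly set.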
